A study of Mus musculus with 17 samples.

Results

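The genes described here make, carry and clear retinoic acid, and were followed in the forestomach of mice given the carcinogen benzo(a)pyrene (BaP) by gavage. They are Stra6, Rdh10, Dhrs3, Aldh1a1, Aldh1a2, Aldh1a3, Crabp1, Crabp2 and Cyp26b1. A probe was taken where its RefSeq transcript belongs to one of these genes, which gave 9 probes for 9 genes among 55681 probes on the array, and all 9 passed the filter on dim probes (Stra6 on exactly 4 arrays, all of them dosed) that left 21380 genes for testing. Each of the 17 arrays carried 2 dyes: Cy5 on the forestomach RNA of a single male MutaTMMouse, a transgenic strain built for counting mutations, and Cy3 on Universal Mouse Reference RNA, a pool from 11 mouse cell lines. The values are therefore log2 of forestomach over cell line RNA for 1 probe, and levels of different genes are not set against each other. The groups were mice given olive oil alone (control, n = 5, replicates 1 to 5) and mice given BaP in olive oil at 25 mg/kg per day (n = 4, replicates 6 to 9), 50 mg/kg per day (n = 4, replicates 12 to 15) or 75 mg/kg per day (n = 4, replicates 17 to 20). Every animal was 24 to 26 weeks old, was gavaged daily for 28 days and gave its tissue 72 hours after the last dose.

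Retinoic acid is the hormone-like product of vitamin A that binds nuclear receptors (RAR with RXR) and sets gene expression. Retinol enters cells with the help of Stra6, is oxidised reversibly to retinal by Rdh10 while Dhrs3 runs the reverse step, and retinal is then oxidised irreversibly to retinoic acid by the Aldh1a enzymes. Crabp1 and Crabp2 carry retinoic acid in the cytosol, and Cyp26 enzymes degrade it. In stratified squamous epithelium, such as the lining of the forestomach, retinoids are known to hold back keratinisation.

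Before the results, the arrays themselves need a short description. Between 39.9% and 50.7% of probes per array stood well above background in Cy5, and the arrays came from 3 slides that each held every dose group. Markers of suprabasal and cornified keratinocytes, which define this lining, had a mean log2 ratio of 4.26 to 4.97 on every array, over 10 of 10 markers measured. Markers of the neighbouring glandular stomach (8 of 9 measured) averaged 0.18 to 1.67 in control and 0.55 to 5.70 at 25 mg/kg. They averaged 0.89 to 1.79 at 50 mg/kg and 0.48 to 3.10 at 75 mg/kg. The group means were 0.70, 2.42, 1.27 and 1.85 from control upward. The highest array was replicate 7 at 25 mg/kg (5.70). Replicates 9 (2.62), 15 (1.79), 17 (2.81) and 20 (3.10) also lay above every control. In limma with dose group in the model, slide passed an adjusted p of 0.05 for 4335 of the 21380 genes (20.3%).

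Dhrs3 and Cyp26b1 had ratios that rose and fell together over the 17 arrays (Pearson r = 0.76, and 0.57 around the group means, a description over arrays that share a reference RNA and slides). They were picked from these same data, as the pair among the 9 genes with the highest r over the 17 arrays. Their RefSeq promoter windows, 250 bases before to 50 bases after the start, are printed 5′ to 3′ because Dhrs3 is the gene whose decline with dose passed the test below and Cyp26b1 ran with it. The Dhrs3 window is the first of 3 and lies on the plus strand at chr4:144892577-144892876, and the Cyp26b1 window lies on the minus strand at chr6:84593761-84594060 (both GRCm38.p6).
Dhrs3: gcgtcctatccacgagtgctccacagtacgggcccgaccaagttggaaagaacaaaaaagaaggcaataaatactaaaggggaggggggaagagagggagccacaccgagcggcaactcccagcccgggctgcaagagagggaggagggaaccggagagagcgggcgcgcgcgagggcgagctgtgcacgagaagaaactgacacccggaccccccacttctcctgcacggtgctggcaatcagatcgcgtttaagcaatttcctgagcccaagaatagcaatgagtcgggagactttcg
Cyp26b1: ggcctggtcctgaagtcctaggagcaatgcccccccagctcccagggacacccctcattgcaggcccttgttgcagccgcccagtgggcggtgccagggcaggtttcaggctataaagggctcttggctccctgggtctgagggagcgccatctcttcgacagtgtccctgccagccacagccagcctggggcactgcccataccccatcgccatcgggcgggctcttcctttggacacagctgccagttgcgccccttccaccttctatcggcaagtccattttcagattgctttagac
Capitals would mark a motif match, and these windows hold none. The motifs searched on both strands were GCGTG, the core bound by the aryl hydrocarbon receptor that BaP activates, AGGTCA, the element read by nuclear receptors, and 2 direct repeats of it, spaced by 5 and by 2 bases, both of which contain AGGTCA. Of all 32851 promoter windows in the table, 32.4% held GCGTG, 16.3% held AGGTCA and 0.00913% held each repeat. Windows were in the table for 6 of the 9 genes (12 windows). Among them GCGTG was found only in Crabp1 (2 matches) and Aldh1a2 (1 match), and AGGTCA and its repeats in none. Aldh1a3, Crabp2 and Rdh10 had no entry.

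Aldh1a3, which oxidises retinal to retinoic acid, rose with dose, and Dhrs3, which reduces retinal back to retinol, fell with dose under loess scaling. With arrays centred on their medians the Dhrs3 slope was near 0 (-0.0048, beside a median slope of 0.052 over all genes). In this bulk tissue, fewer cells of a type and less RNA per cell cannot be told apart. These were the 2 genes of 9 that passed the test of a straight line on dose (limma, Benjamini-Hochberg over all 21380 genes, threshold 0.05), 1 upward and 1 downward, against 1.35% of all genes, 1.05% upward and 0.299% downward. Against control, 1 of the 9 passed at 75 mg/kg (Aldh1a3, higher), where 236 of all genes passed (1.10%, of which 0.893% were higher and 0.210% lower). None passed at 50 mg/kg (0.0468% of all genes did) or at 25 mg/kg (0.0140%), and none passed for 75 against 25 mg/kg (0.0608%). At an unadjusted p of 0.05, limma gave 1, 3 and 5 of the 9 genes at 25, 50 and 75 mg/kg against control, where 3.26%, 6.81% and 10.1% of all genes did, and 4 genes for 75 against 25 mg/kg (4.74%). The median log2 change of the 9 genes at 75 mg/kg was -0.22, beside -0.0084 over all genes, and turned to 0.076 with arrays centred on their medians, beside 0.19 over all genes.

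**Figure D1:**
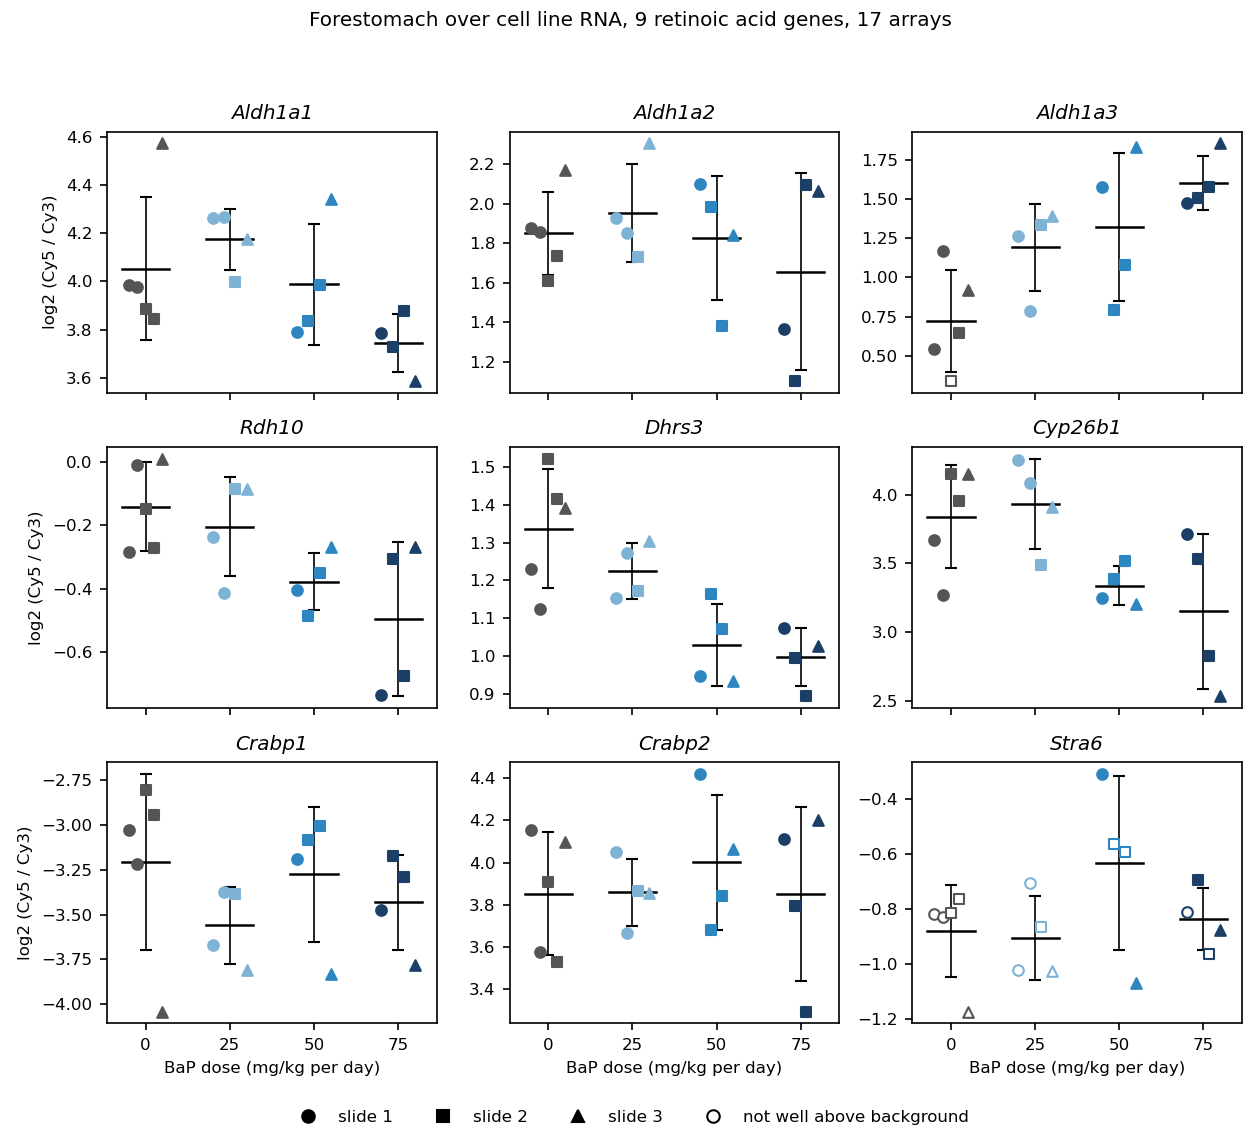
Log2 ratio of forestomach (Cy5) over cell line RNA (Cy3) for the 9 genes on 17 arrays, by BaP dose in mg/kg per day with control at 0. Points are arrays, their shape gives the slide and open points were not well above background in Cy5; lines are group means with SD (n = 5 control, n = 4 each dose). Under this loess scaling Aldh1a3 climbs from left to right and Dhrs3 declines. With median centring the Dhrs3 slope lay near 0, beside a median slope of 0.052 over all genes. All 4 arrays at 75 mg/kg lie beyond all 5 controls for both, as was so in either direction for 3.30% of all genes.

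At the entry step, Stra6, the membrane receptor for the retinol carrier Rbp4, was close to the detection limit. Its Cy5 signal was well above background on no control array, on no array at 25 mg/kg, on 2 of 4 at 50 mg/kg and on 2 of 4 at 75 mg/kg. The log2 ratio averaged -0.88 ± 0.17 in control, -0.91 ± 0.15 at 25 mg/kg, -0.63 ± 0.32 at 50 mg/kg and -0.84 ± 0.11 at 75 mg/kg (SD). Stra6 met the filter of 4 arrays only through the groups at 50 and 75 mg/kg, so its differences of 0.25 at 50 mg/kg and 0.044 at 75 mg/kg from control are a description with no test, and no fold is given. It stayed among the 9 genes in the counts above and was not among those that passed.

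Rdh10, the retinol dehydrogenase that makes retinal, stood at log2 ratios of -0.28, -0.01, -0.15, -0.27 and 0.01 in control and -0.24, -0.41, -0.08 and -0.08 at 25 mg/kg. It stood at -0.40, -0.48, -0.35 and -0.27 at 50 mg/kg and -0.74, -0.30, -0.67 and -0.27 at 75 mg/kg. The arrays at 75 mg/kg reached below all controls in 3 of 4 cases, with the fourth level with the lower controls. The mean difference from control was -0.36 ± 0.11 (SE) at 75 mg/kg and did not pass (adjusted p = 0.222), and the slope was -0.12 ± 0.034 per 25 mg/kg per day (adjusted p = 0.0993). With slide as a block in the limma fit the slope was -0.13 and passed (adjusted p = 0.0280). The Rdh10 probe was dim, with a Cy5 signal of 97 to 174 intensity units, though it was well above background on every array.

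Dhrs3, the short-chain reductase that turns retinal back into retinol, had log2 ratios of 1.23, 1.12, 1.52, 1.42 and 1.39 in control and 1.15, 1.27, 1.17 and 1.30 at 25 mg/kg. At 50 mg/kg they were 0.95, 1.16, 1.07 and 0.93, and at 75 mg/kg 1.07, 1.00, 0.89 and 1.03. The groups at 75 mg/kg and control did not overlap, with all 4 arrays below all 5, as was so in either direction for 3.30% of all genes. The slope was -0.12 ± 0.028 log2 units per 25 mg/kg per day (SE, adjusted p = 0.0296). The difference at 75 mg/kg was -0.34 ± 0.09, a level 1.27-fold lower, and did not pass alone (adjusted p = 0.0996, and 0.0475 with slide as a block). Within slides 1, 2 and 3 that difference was -0.10, -0.52 and -0.36.

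The decline of Dhrs3 depended on how the arrays were scaled. With each array centred on its median in place of loess, the slope was -0.0048 (adjusted p = 0.980), beside a median slope of 0.052 over all genes. The difference at 75 mg/kg turned to 0.056, in a setting where the median of all genes itself lay at 0.19. Over the 8 alternative settings the adjusted p of the slope ran between 0.0136 and 0.980. The slope passed in 6 of the 8. With single arrays left out, it stayed between -0.14 and -0.11 and passed in 11 of 17 fits. The adjusted p was 0.0795, 0.0811 and 0.0592 without controls 3, 4 and 5, and 0.0675, 0.0694 and 0.0523 without replicates 18, 19 and 20 at 75 mg/kg. Without control 2, the difference at 75 mg/kg was -0.39 and passed (adjusted p = 0.0365).

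**Figure D2:**
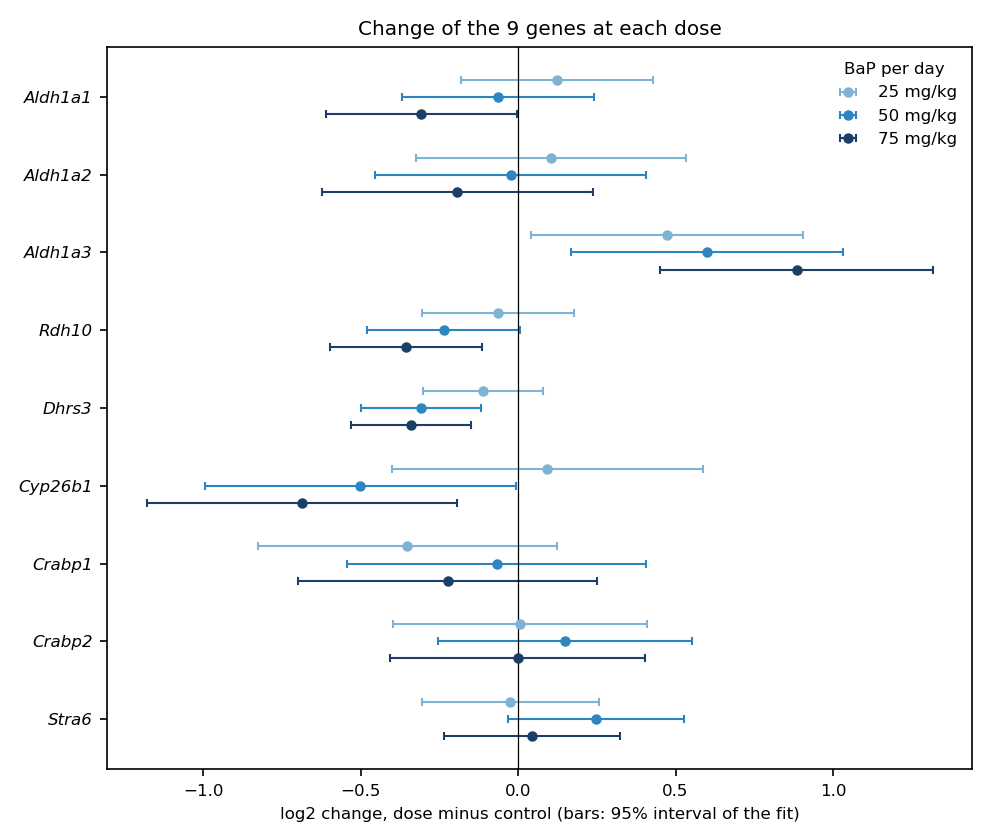
Log2 change of each gene against control at 25, 50 and 75 mg/kg BaP per day, with the 95% interval of the limma fit, not adjusted for the number of genes. Stra6 is drawn as a description only, because it met the filter through the groups at 50 and 75 mg/kg alone. Aldh1a3 lies above 0 at every dose (0.47, 0.60 and 0.88), and the intervals of Dhrs3, Rdh10, Cyp26b1 and, barely, Aldh1a1 (-0.61 to -0.0034) at 75 mg/kg lie below 0 with loess scaling (Dhrs3 turns to 0.056 and Aldh1a1 to 0.076 with median centring).

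Of the 3 retinal dehydrogenases, Aldh1a3 alone passed. Its log2 ratios were 0.54, 1.17, 0.34, 0.64 and 0.92 in control and 1.27, 0.78, 1.34 and 1.39 at 25 mg/kg. They were 1.58, 0.79, 1.08 and 1.84 at 50 mg/kg and 1.48, 1.51, 1.58 and 1.86 at 75 mg/kg. All 4 arrays at 75 mg/kg lay above all 5 controls and above all 4 arrays at 25 mg/kg, while the groups at 25 and 50 mg/kg overlapped control. Of all genes, 3.30% did not overlap in either direction between 75 mg/kg and control, and 3.10% between 75 and 25 mg/kg. The slope was 0.28 ± 0.063 per 25 mg/kg per day (SE, adjusted p = 0.0263). At 75 mg/kg Aldh1a3 was 1.85-fold higher than control (log2 change 0.88 ± 0.20, adjusted p = 0.0467), with 0.62, 1.06 and 0.94 within slides 1, 2 and 3 and an adjusted p of 0.0137 with slide as a block. The changes at 50 mg/kg (0.60, adjusted p = 0.586) and 25 mg/kg (0.47, adjusted p = 0.999) did not pass.

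The Aldh1a3 probe was dim. Its median Cy5 signal ran from 86 to 233 intensity units, and on control 3 it was not well above background. Its Cy3 signal, from the reference RNA, ran from 45 to 63.5 units. That signal was well above background only on replicates 17 and 19 at 75 mg/kg. The Aldh1a3 ratios and folds are therefore taken over a reference signal near background, with an offset of 50. The call at 75 mg/kg sits near the threshold: over 9 other settings the adjusted p ran between 0.0137 and 0.339 and passed in 3. Without one of controls 1, 3 and 4 it was 0.120, 0.128 and 0.116, and without one of replicates 17, 18, 19 and 20 at 75 mg/kg it was 0.100, 0.113, 0.0865 and 0.164. It was also lost without replicates 6, 8 and 9 at 25 mg/kg (0.0656, 0.0599 and 0.0599) and replicates 12 and 14 at 50 mg/kg (0.0541 and 0.0596). The slope passed in 6 of 8 other settings, with a limma adjusted p between 0.00536 and 0.178. It was lost without controls 1, 3 and 4 (0.0701, 0.0717 and 0.0681) and replicates 18 and 20 (0.0513 and 0.0790). Without replicate 7 at 25 mg/kg, the array with the highest glandular markers, the slopes of Aldh1a3 (0.28, adjusted p = 0.0348) and Dhrs3 (-0.12, adjusted p = 0.0433) still passed. Both slopes were lost without replicate 20, whose glandular markers were next highest (3.10). Both still passed without replicate 17 (2.81) or replicate 9 (2.62). The part of glandular tissue in these slopes was not tested. The log2 change of Aldh1a3 at 75 mg/kg itself stayed between 0.79 and 1.00 when single arrays were left out.

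Markers of other cells and cell states are set beside Aldh1a3. Keratins and alarmins of hyperplastic keratinocytes (6 of 6 markers measured, Krt6a, Krt6b, Krt16, Krt17, S100a8 and S100a9) had mean log2 ratios of 0.87 to 2.62 in control, 2.38 to 2.84 at 25 mg/kg, 2.53 to 5.29 at 50 mg/kg and 2.67 to 5.12 at 75 mg/kg. Of the 6, Krt16 passed at 75 mg/kg (3.62 ± 0.57, adjusted p = 0.00429). Markers of macrophages and dendritic cells (6 of 7 measured) averaged 0.34 to 0.47 at 75 mg/kg and -0.51 to 1.10 in control. Of these 6, 1 passed at 75 mg/kg, as did 1.10% of all genes. The median change at 75 mg/kg was 2.07 for hyperplastic keratinocytes (6 of 6 positive) and 0.56 for macrophages (4 of 6). It was 1.12 for glandular stomach (7 of 8), -0.02 for basal (3 of 7) and -0.02 for suprabasal keratinocytes (5 of 10), beside 48.0% positive over all genes. No glandular or basal marker passed at 75 mg/kg, and 1 of 10 suprabasal markers did. The part of these cells in the Aldh1a3 result was not tested.

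**Figure D3:**
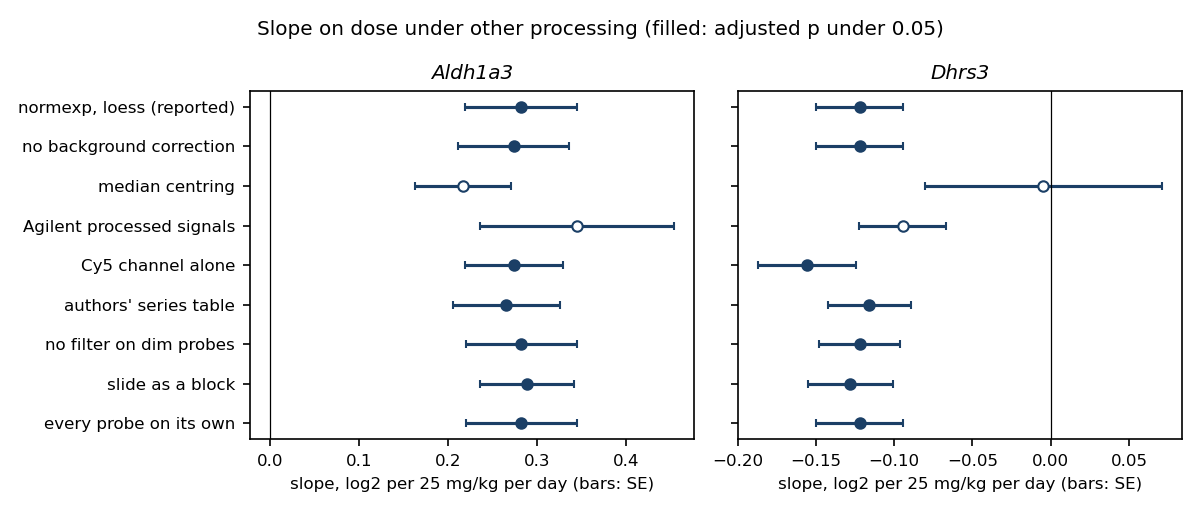
Slope of log2 ratio on dose, per 25 mg/kg per day, for Aldh1a3 and Dhrs3 under the reported processing and 8 alternatives; bars are SE and filled points have an adjusted p under 0.05. Aldh1a3 stays between 0.22 and 0.35. Dhrs3 lies at -0.0048 with median centring, beside a median slope of 0.052 over all genes. Each of the 2 slopes passed in 6 of the 8 alternatives.

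Aldh1a1, the retinal dehydrogenase also known for clearing reactive aldehydes, had log2 ratios of 3.99, 3.98, 3.88, 3.84 and 4.57 in control and 4.26, 4.27, 4.00 and 4.18 at 25 mg/kg. They were 3.79, 3.84, 3.98 and 4.34 at 50 mg/kg and 3.79, 3.73, 3.88 and 3.59 at 75 mg/kg. All 4 arrays at 75 mg/kg lay below all 4 at 25 mg/kg, but overlapped control. The difference was -0.43 ± 0.15 (SE) for 75 against 25 mg/kg (adjusted p = 0.700) and -0.31 ± 0.14 for 75 mg/kg against control (adjusted p = 0.488). Groups that did not overlap between 75 and 25 mg/kg were seen for Aldh1a1, Dhrs3 and Aldh1a3, 3 of the 9 genes, and for 3.10% of all genes. Aldh1a7, a close copy of Aldh1a1, may share signal with this probe.

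Aldh1a2, the retinal dehydrogenase of mesenchyme and mesothelium, averaged 1.85 ± 0.21 in control, 1.95 ± 0.25 at 25 mg/kg, 1.83 ± 0.32 at 50 mg/kg and 1.66 ± 0.50 at 75 mg/kg (SD). At 75 mg/kg the arrays fell into 2 low values (1.37 and 1.10) and 2 high ones (2.09 and 2.06). The difference from control was -0.19, with a 95% interval of -0.62 to 0.24 (adjusted p = 0.811). Mesothelial markers (7 of 7 measured) also had their widest range at that dose, -1.10 to 0.58, against -0.45 to 0.33 in control, and their part in the spread was not tested.

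The binding proteins gave no change with dose that passed. Crabp2, which delivers retinoic acid to its receptors, was far above cell line RNA in every group, with mean log2 ratios of 3.85 ± 0.29 in control, 3.86 ± 0.16 at 25 mg/kg, 4.00 ± 0.32 at 50 mg/kg and 3.85 ± 0.41 at 75 mg/kg (SD). Its 95% interval for 75 mg/kg against control ran from -0.41 to 0.40 (adjusted p = 0.999). Crabp1, which binds retinoic acid and is known for sending it to breakdown, was far below cell line RNA, at -3.21 ± 0.49, -3.56 ± 0.21, -3.28 ± 0.38 and -3.43 ± 0.27 in the same order. Its difference at 75 mg/kg was -0.22, with an interval of -0.70 to 0.25 (adjusted p = 0.803). The Cy5 signal of Crabp1 was dim, at 107.5 to 197 intensity units, though well above background on every array. Its ratios therefore rest on a dim Cy5 signal with an offset of 50.

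The spread of Crabp1 followed the slide. Ratios ran from -3.67 to -3.03 on slide 1, -3.39 to -2.80 on slide 2 and -4.04 to -3.78 on slide 3, so slide 3 lay below both others. Slide passed for 1 of the 9 genes, Crabp1 (limma, adjusted p = 0.000683), beside 20.3% of all genes. Stra6, whose Cy5 signals lay mostly at background, came next at 0.0676. The Cy3 signal of the Crabp1 probe, which comes from the same reference RNA on all arrays, was 3298 to 4035 units on slide 1, 2517 to 2751 on slide 2 and 3663 to 4038 on slide 3.

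**Figure D4:**
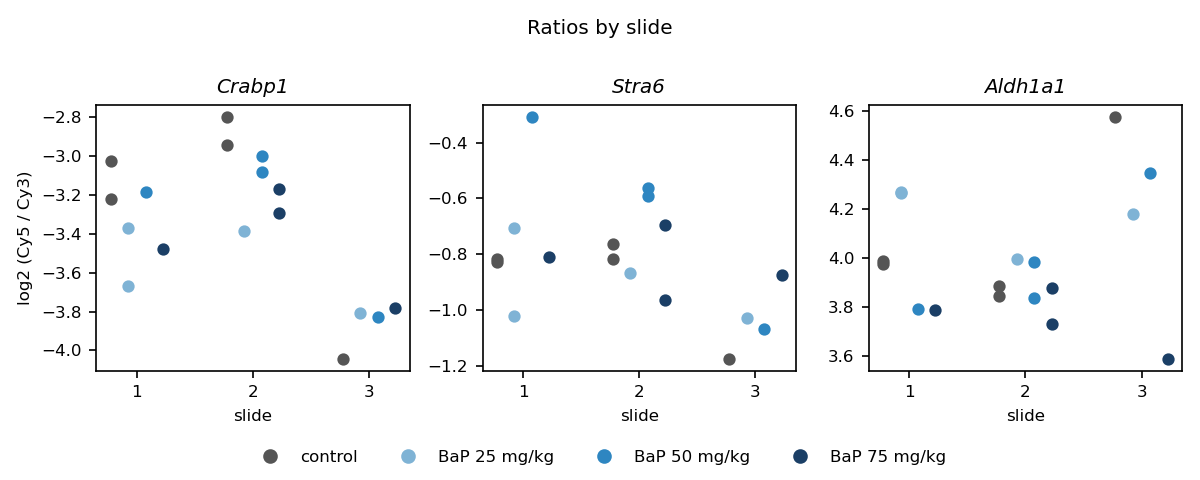
Log2 ratios of Crabp1, Stra6 and Aldh1a1 by slide, each point 1 array, coloured by dose group. The 4 Crabp1 values of slide 3 lie between -4.04 and -3.78, below every value of the other slides.

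Cyp26b1, the cytochrome that degrades retinoic acid, had log2 ratios of 3.67, 3.27, 4.15, 3.96 and 4.15 in control and 4.25, 4.08, 3.49 and 3.91 at 25 mg/kg. They were 3.25, 3.39, 3.51 and 3.21 at 50 mg/kg and 3.72, 3.53, 2.83 and 2.53 at 75 mg/kg. The lowest 2 values of all lay at 75 mg/kg, but the other 2 arrays at that dose overlapped control. The difference was -0.69 ± 0.23 (SE), a level 1.61-fold lower, and did not pass (adjusted p = 0.266). Within slides 1, 2 and 3 it was 0.24, -0.87 and -1.61, so it did not hold on slide 1. For 75 against 25 mg/kg it was -0.78 ± 0.25 (adjusted p = 0.558). The slope of -0.26 ± 0.075 did not pass (adjusted p = 0.119), except without control 2 (-0.31, adjusted p = 0.0268).

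Markers of other layers of the forestomach wall, all under loess scaling, are set beside Dhrs3, Rdh10 and Cyp26b1. The mean ratios of these genes lay below control at 75 mg/kg, by differences that did not pass as reported. Of all genes, 48.0% had a positive change at 75 mg/kg. Smooth muscle markers (6 of 6 measured) had mean log2 ratios of 4.45 to 5.20 at 75 mg/kg and 4.82 to 5.54 in control, with 0 of 6 positive and a median change of -0.44. Nerve and glia markers (7 of 7 measured) had 0.57 to 1.18 at 75 mg/kg and 0.90 to 1.44 in control, with 0 of 7 positive and a median change of -0.28. Adipocyte markers (6 of 6 measured) had 1.12 to 3.28 at 75 mg/kg and 1.14 to 4.07 in control, with 1 of 6 positive and a median change of -0.83. Fibroblast markers had a median change of 0.18 with 5 of 7 positive. The median was -0.04 for endothelium (2 of 5 positive) and -0.09 for mesothelium (3 of 7 positive). No marker of these lists passed limma at 75 mg/kg, beside 1.10% of all genes, or for the slope, beside 1.35%. An unadjusted p under 0.05 at 75 mg/kg was seen for 1 of smooth muscle, 1 of nerve, 1 of fibroblast and 0 of the rest (10.1% of all genes). For the slope the counts were 3, 4, 1 and 0 in the same order (11.4% of all genes). Their part in the values of these genes was not tested.

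Around these genes, 54 others of the retinoid pathway were on the array and 44 passed the filter. None passed limma's test at 25, 50 or 75 mg/kg against control or for 75 against 25 mg/kg (0, 4, 3 and 2 had an unadjusted p under 0.05, beside 3.26%, 6.81%, 10.1% and 4.74% of all genes), and 1 of 44 passed for the slope, beside 1.35% of all genes. It was Bhlhe40, a transcriptional repressor known to respond to retinoic acid, with a slope of 0.19 ± 0.041 (SE, adjusted p = 0.0214). By role, none of 7 genes of retinol uptake and storage, 19 oxidoreductases and 8 receptors and carriers passed for the slope, and 1 of 10 responsive genes did. Cyp26a1 and Cyp26c1, the other degrading cytochromes, were too dim to be tested. The oxidoreductases had a median log2 change of 0.11 at 25 mg/kg, with 12 of 19 positive beside 52.3% of all genes, and -0.17 at 75 mg/kg, with 5 positive beside 48.0% of all genes. With median centring the median at 75 mg/kg turned to 0.080, beside 0.19 over all genes. The 44 genes together had a median of -0.07 at 75 mg/kg, and 0.14 with median centring.

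**Figure D5:**
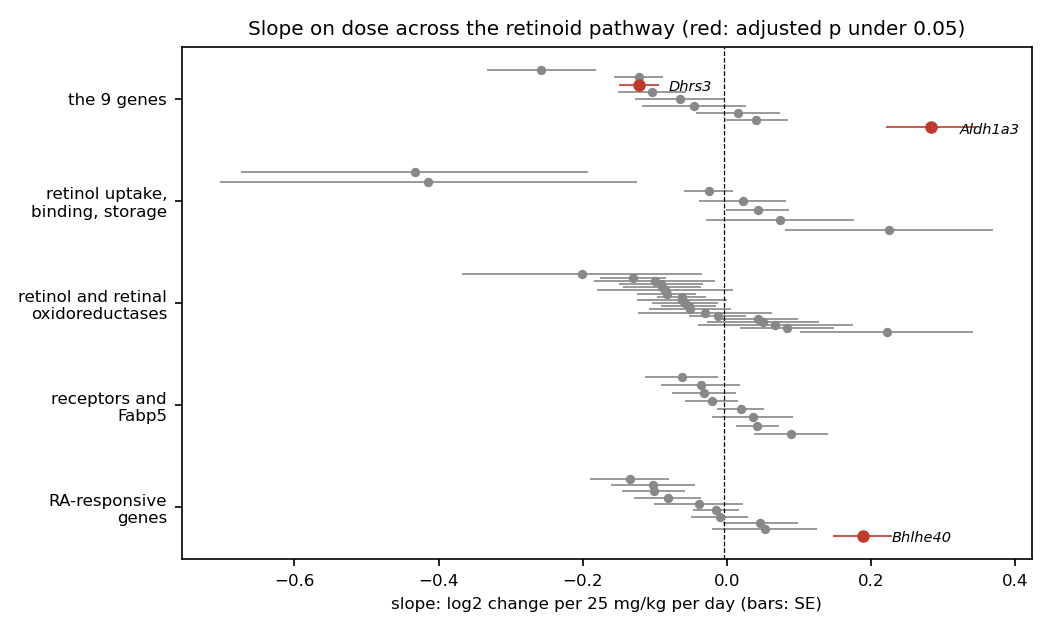
Slope on dose, per 25 mg/kg per day with SE, for the 9 genes and 44 other retinoid pathway genes by role; the dashed line is the median of all genes. Red marks Aldh1a3 (0.28), Dhrs3 (-0.12) and Bhlhe40 (0.19), which passed. The Stra6 slope is a description only, because Stra6 met the filter through dosed arrays alone.

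The genes whose ratios were most like each member over the 17 arrays were taken among 13828 genes with symbols, as a description of arrays that share slides and reference RNA. For Aldh1a3 they were P2ry6, a receptor for UDP (r = 0.88), Chfr, a mitotic checkpoint ubiquitin ligase (0.87), and Zmynd15 (0.87). For Dhrs3 they were Myo1d (0.85), Irs1 (0.84) and Ndufs7 (0.83). For Cyp26b1 they were Pex11a (0.82), Adipor2 (0.80) and Acaa1a (0.80). For Aldh1a1 they were Cbr1 (0.88), Gm10638 (0.87) and Sult1e1 (0.86), and for Crabp1 Rhox5 (0.95), Ddah1 (0.93) and Trp53 (0.92), the last set low on slide 3 as Crabp1 was. For Aldh1a2 they were Larp6 (0.84), Fam131a (0.80) and Arhgap44 (0.80), and for Crabp2 Tmem54 (0.87), Them5 (0.86) and Bicdl2 (0.85). For Rdh10 they were Hsd17b14 (0.84), Atg4d (0.82) and Gpat4 (0.82), and for Stra6 Pign (0.85), Gdf15 (0.81) and Fam107a (0.81). Within the 9, Aldh1a3 and Dhrs3 ran opposite to each other (r = -0.82, and -0.63 around the group means).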

How the data were processed

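Forestomach RNA of 17 mice was measured on 2-colour arrays from 3 slides. The authors deposited scanner tables holding intensity values of spots and local background for both dyes, which the file headers credit to Feature Extraction 10.7.3.1. A deposited series table held log2 values and served as an alternative; its direction and centring were checked against the array values. RNA integrity numbers were above 6.6 and 200 ng was labelled per array, per the labels' protocols.

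Median signals were corrected with normexp (offset 50) and put through loess within each array, control spots having no weight. A probe had to exceed background in Cy5 on 4 arrays or more, and the brightest probe stood for a gene. Symbols came from RefSeq (GRCm38.p6). The array design names mm9. Differences were tested with limma 3.58.1 in R 4.3.3, two-sided, in 1 fit of 17 arrays with 4 group means and in a fit with a straight line on dose, adjusted by Benjamini-Hochberg over 21380 genes. Named genes were all 9 members, pathway genes that passed in any comparison and the 3 most alike genes of a member. The members and the lists were chosen with earlier results of these data known. The test of slide was added after seeing the data. Scripts were tested on simulated data. Replicates are separate animals per the labels, whose protocol names 5 animals per group. The number of arrays limits the precision.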

Additional observations from a re-analysis of the deposited data

Results flagged for a closer look

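Control 5 stood apart from the other controls in 2 genes. Its Aldh1a1 log2 ratio was 4.57, with the next control at 3.99, and its Stra6 log2 ratio was -1.17, with the next at -0.83. Stra6 was not well above background on any control, so its gap compares signals at background. The gap was 0.804 of the whole range for Aldh1a1 and 0.841 for Stra6. Of 36 groups of values checked, 2 were singled out in this way, and chance singles out about 1 in 20 groups. Control 5 was the only control on slide 3. In limma with dose group in the model, slide did not pass for Aldh1a1 (adjusted p = 0.248) or Stra6 (0.0676). The part of the slide in the gaps of this single array was not tested.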

How the results depend on the processing

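No paired analysis was possible because the groups share no replicate numbers. Of the results of single genes under settings that kept all arrays, 359 kept direction and side of the threshold, 2 newly passed, 10 no longer passed and 25 changed sign. Median centring put the median of all genes at 0.19 at 75 mg/kg (-0.0084 as reported) and gave fewer calls: 145 genes passed at 75 mg/kg (142 higher and 3 lower, against 191 and 45 as reported), 1 at 50 mg/kg, 0 at 25 mg/kg, 0 for 75 against 25 mg/kg and 172 for the slope (166 and 6, against 224 and 64). With slide as a block the counts were 424, 28, 1, 32 and 549 in the same order. In limma fits of the compared groups alone, 155 passed at 75 mg/kg and 0 for 75 against 25 mg/kg. Agilent's processed signals gave 1 at 25 mg/kg and 0 for 75 against 25 mg/kg, Cy5 alone gave 1 at 25 mg/kg, and no filter gave 6 at 50 mg/kg and 1 at 25 mg/kg. Where the count was 0, limma gave 472 genes at an unadjusted p under 0.05 for 25 mg/kg with median centring, and 487, 1062 and 1151 for 75 against 25 mg/kg with median centring, processed signals and the compared groups alone. Leaving out 1 array gave 119 to 289 genes at 75 mg/kg, 2 to 32 at 50 mg/kg, 0 to 2 at 25 mg/kg, 0 to 37 for 75 against 25 mg/kg and 192 to 403 for the slope; the count at 75 mg/kg fell to 143, 157 and 129 without controls 1, 3 and 4 and to 119, 122 and 130 without replicates 17, 18 and 20.

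Signs of single genes turned as follows, none of them a call as reported, and the cause was not tested. Median centring gave, at 75 mg/kg, Aldh1a1 0.076, Aldh1a2 0.0018, Crabp1 0.098, Crabp2 0.37 and Dhrs3 0.056; at 50 mg/kg, Aldh1a1 0.16, Aldh1a2 0.045, Crabp1 0.069; at 25 mg/kg, Rdh10 0.043, Dhrs3 0.18, Stra6 0.0023; for 75 against 25 mg/kg, Crabp2 0.082; for the slope, Aldh1a1 0.0093, Crabp1 0.045. Agilent's processed signals gave, at 50 mg/kg, Aldh1a2 0.089; at 25 mg/kg, Crabp2 -0.058, Stra6 0.27; for 75 against 25 mg/kg, Crabp2 0.037. Cy5 alone gave, at 75 mg/kg, Crabp2 0.20; at 25 mg/kg, Stra6 0.021; for 75 against 25 mg/kg, Crabp2 0.091. The authors' deposited series table gave, at 25 mg/kg, Crabp2 -0.018. Slide as a block gave, at 75 mg/kg, Crabp2 0.029; at 25 mg/kg, Crabp2 -0.045; for 75 against 25 mg/kg, Crabp2 0.074. Leaving out 1 array gave a range across 0 in these cases: at 75 mg/kg, Crabp2 -0.12 to 0.18, Stra6 -0.029 to 0.086; at 50 mg/kg, Crabp1 -0.28 to 0.12, Aldh1a1 -0.18 to 0.066, Aldh1a2 -0.12 to 0.12; at 25 mg/kg, Crabp2 -0.075 to 0.082, Cyp26b1 -0.049 to 0.24, Stra6 -0.099 to 0.016, Rdh10 -0.10 to 0.0058, Aldh1a2 -0.013 to 0.18; for 75 against 25 mg/kg, Crabp2 -0.13 to 0.18; for the slope, Crabp2 -0.011 to 0.069. Signals of Stra6 and Aldh1a3 lay near background, and the Cy5 signals of Rdh10 and Crabp1 were also dim.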
